A study of Mus musculus with 12 samples.

Results

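The cytosolic sulfotransferases described here are the 8 genes Sult1a1, Sult1b1, Sult1c2, Sult1d1, Sult2a1, Sult2a8, Sult3a1 and Sult5a1, taken by symbol from a table of 25069 genes measured by RNA sequencing of mouse liver. There were 12 libraries from female mice, all of them wild type at Khdc3, a gene whose product works in the egg and early embryo. WTMM libraries (4, numbered 6, 7, 8 and 9) came from mice whose maternal and paternal grandmothers were both Khdc3-null. WTPP libraries (4, numbered 2, 3, 6 and 7) came from mice whose maternal and paternal grandfathers were both Khdc3-null. WT libraries (4, numbered 116, 117, 118 and 120) came from mice with wild-type ancestors only. No age, strain, litter or parental genotype is given in the sources used here. The labels give liver as the tissue and hepatocyte as the cell type. The comparisons ask whether a null grandmother or a null grandfather leaves a difference in liver RNA of descendants that do not carry the null allele.

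Cytosolic sulfotransferases move a sulfonate group from the donor PAPS (3′-phosphoadenosine 5′-phosphosulfate) to hydroxyl or amino groups of small molecules. The products are more soluble in water, are usually less active at receptors, and leave the liver cell through carriers into bile or blood. The Sult1 enzymes act mainly on phenols, thyroid hormones and catecholamines, the Sult2 enzymes on steroids and bile acids, and Sult3 enzymes on amines. Several of these genes differ between the sexes in mouse liver, with Sult2a1 and Sult3a1 known as female-predominant.

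All of these enzymes hold PAPS with a conserved loop near the start of the protein. The 27 coding bases for this loop are shown because they give the reader a stretch that the 8 genes can be compared on, and because sequence likeness decides how well reads of the genes can be told apart. They were read from the GENCODE M21 coding sequences on GRCm38, 5′ to 3′ on the coding strand, and capitals mark bases unlike the commonest base of the 8 genes (at 3 positions, where bases were equally common, the alphabetically first was taken). In each gene the stretch crosses an exon junction, so the genomic span given after the sequences holds an intron.
Sult1a1: acGtacccaaaGtcTggtacTacctgg
Sult1b1: acttacccTaaatcaggtacTacTtgg
Sult1c2: acttacccTaaatcaggGacAacAtgg
Sult1d1: acAtaTccCaaatcTggAacAacTtgg
Sult2a1: acttacccCaaGtcaggAacGaActgg
Sult2a8: acttaTccaaaatcaggAaccCActgg
Sult3a1: acAtaTccaaaGtcTggtaccaTctgg
Sult5a1: acAtTTccCaaGtcaggtaccacctgg
The spans are chr7:126675343-126675459 on the minus strand for Sult1a1, chr5:87534019-87534952 on the minus strand for Sult1b1, chr17:53838485-53838847 on the minus strand for Sult1c2 and chr5:87564825-87566051 on the minus strand for Sult1d1. They are chr7:13836159-13837236 on the minus strand for Sult2a1, chr7:14425546-14427799 on the minus strand for Sult2a8, chr10:33864073-33866531 on the plus strand for Sult3a1 and chr8:123149423-123157454 on the minus strand for Sult5a1. Of the 27 positions, 16 held the same base in all 8 genes. The stretch was found in each gene by a fixed amino acid pattern of the loop, so much of this likeness was set in advance. Sult2a1 and its neighbour Sult2a2 had the same 27 bases. Over the whole coding sequence, Sult2a1 shared 97.9% of aligned bases with Sult2a2 (582 bases aligned, since the annotated Sult2a2 coding sequence is shorter), 94.9% with Sult2a5, 94.0% with Sult2a4, 93.7% with Sult2a3 and 89.7% with Sult2a6, but 70.4% with Sult2a8.

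This likeness bears on the counts. Of all 50-base windows of Sult2a1 transcripts, 33.2% also occurred in transcripts of another gene, chiefly Sult2a2 and Sult2a5, and 11.4% of the 100-base windows did. For Sult3a1 6.2% of the 50-base windows occurred in Sult3a2, and for Sult1a1 7.7% occurred in a predicted gene. The share was 1.4% for Sult5a1, 0.7% for Sult1c2, and 0 for Sult1b1, Sult1d1 and Sult2a8. How the authors' counting treated reads that match several genes is not given in the sources used here, so the split of reads among Sult2a1 to Sult2a6 is uncertain, and a sum of those genes is given beside the single gene. Sult1a1 also shared 61 exon bases with Sgf29 on the opposite strand.

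The libraries held 25070718 to 35843972 reads assigned to genes, and 19272 to 20395 genes with at least 1 read. Values are normalized counts, that is reads scaled by 1 factor per library. All 8 genes had a mean of at least 10 normalized counts over the 12 libraries, the level required for testing, as did 14473 genes in all. A gene is called where limma's test on log2(normalized count + 1) gave a Benjamini-Hochberg adjusted p under 0.05 over all genes tested. Nothing in the labels says which mice shared a litter or grandparents. The p-values take each mouse as independent and set differences of group means against the spread between mice within groups. They cannot tell an effect of ancestry apart from one of litter, family or any batch that followed the groups. The labels name no batch.

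In each comparison 1 of the 8 genes was called higher and 1 lower, and which genes these were differed. In WTMM against WT, Sult2a8 was higher and Sult2a1 lower, where 10.4% of all tested genes were called (4.44% higher and 5.94% lower). For WTPP against WT, Sult2a8 was higher and Sult5a1 lower, with 10.2% of all tested genes called (4.68% higher and 5.53% lower). In WTMM against WTPP, Sult5a1 was higher and Sult2a1 lower, with 4.17% of all tested genes called (2.29% higher and 1.88% lower). With 8 genes, nothing about the family is read from 1 call in a direction. The median log2 fold change of the 8 genes was 0.113 for WTMM against WT, 0.203 for WTPP against WT and -0.0131 for WTMM against WTPP, beside medians over all tested genes of 0.000346, -0.00756 and -0.000369. The groups did not overlap for 2 of the 8 genes in each comparison, which were the called ones. Groups did not overlap for 18.8% of all tested genes in WTMM against WT, 15.1% in WTPP against WT and 13.2% in WTMM against WTPP. The first and the second comparison share the WT libraries.

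**Figure D1:**
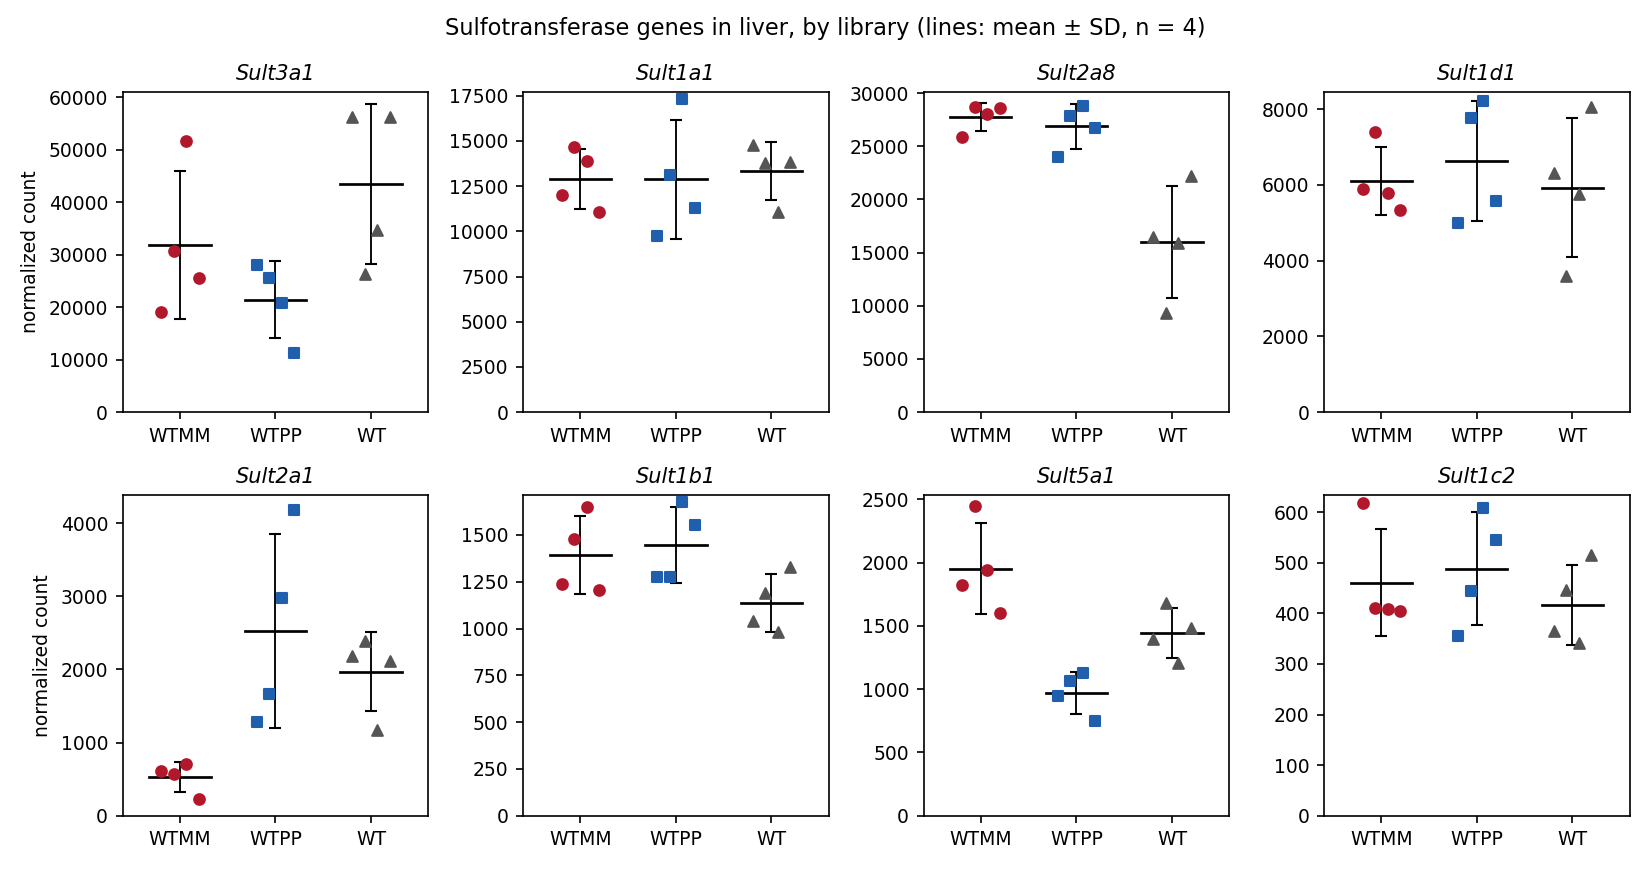
Normalized counts (y axis, from 0) of the 8 sulfotransferase genes in WTMM, WTPP and WT livers (x axis); each point is a library, and lines give the mean ± SD of 4. Sult2a1 was lowest in the 4 WTMM livers (230.7 to 705.1), Sult2a8 was above every WT liver in all WTMM and WTPP livers, and Sult5a1 was lowest in the 4 WTPP livers (746.3 to 1127).

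Sult2a1 encodes a hydroxysteroid sulfotransferase that acts on dehydroepiandrosterone and bile acids. The gene lies at chr7:13796246-13837409 on the minus strand of GRCm38. It had 608.0, 575.5, 705.1 and 230.7 normalized counts in WTMM livers 6, 7, 8 and 9. WTPP livers 2, 3, 6 and 7 had 1284, 1662, 2984 and 4182, and WT livers 116, 117, 118 and 120 had 2180, 2395, 1176 and 2121. Every WTMM liver was below every liver of the other groups, while WTPP and WT livers overlapped, with the widest spread in WTPP.

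The means of Sult2a1 were 529.8 ± 206.9 in WTMM, 2528 ± 1322 in WTPP and 1968 ± 541.1 in WT (SD, n = 4 each). Sult2a1 was 3.88-fold lower in WTMM than in WT (log2 fold change -1.96 ± 0.39 SE, limma adjusted p = 0.00836). It was 4.64-fold lower in WTMM than in WTPP (log2 fold change -2.21 ± 0.39 SE, limma adjusted p = 0.00735). Between WTPP and WT the difference did not pass the test (fold 1.2, 95% interval 0.669 to 2.14, limma adjusted p = 0.722). Since bulk liver RNA was sequenced, fewer cells of a type and less RNA per cell cannot be told apart, here and below.

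Neighbouring paralogs of the cluster were also lower in WTMM livers. The cluster runs on chromosome 7 from Sult2a5, which starts at 13623967, past Sult2a8 to Sult2a7, which ends at 14494230. Sult2a2, whose transcripts share most with Sult2a1, had 1905, 1692, 2061 and 605.2 normalized counts in WTMM livers, against 2659, 3623, 3789 and 4169 in WTPP livers and 2756, 3565, 2737 and 3553 in WT livers. Sult2a5 had 248.6, 238.5, 295.7 and 73.93 in WTMM livers, against 436.2, 579.7, 730.5 and 960.1 in WTPP livers and 501.5, 615.4, 477.2 and 530.5 in WT livers. In both genes all WTMM livers were lower than all other livers, and WTMM 9 was the lowest.

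Of the 6 genes Sult2a1 to Sult2a6, 5 were called lower in WTMM than in WT, and Sult2a6 missed the threshold (log2 fold change -1.25 ± 0.41 SE, limma adjusted p = 0.0654). Besides Sult2a1, the fold changes in WTMM against WT were 0.453 for Sult2a2 (limma adjusted p = 0.0299), 0.327 for Sult2a3 (0.0286), 0.479 for Sult2a4 (0.0478) and 0.360 for Sult2a5 (0.0198). In WTMM against WTPP, Sult2a1, Sult2a2, Sult2a3, Sult2a5 and Sult2a6 were called lower, and Sult2a4 had a fold of 0.514 that did not pass (limma adjusted p = 0.113). None of the 6 was called between WTPP and WT. How reads that match several of these genes were counted is unknown. Of the 50-base windows, 62.1% of Sult2a2, 34.5% of Sult2a5 and 25.5% of Sult2a4 occurred in transcripts of another gene, against 8.4% of Sult2a3 and 7.3% of Sult2a6.

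With the reads of Sult2a1 to Sult2a6 summed, a choice made after seeing the data, WTMM livers held 2697 ± 1132 normalized counts, against 7859 ± 2520 in WTPP and 6480 ± 1124 in WT (SD, n = 4 each). The log2 fold change of the sum was -1.39 ± 0.33 SE in WTMM against WT (limma adjusted p = 0.0197) and -1.63 ± 0.33 SE in WTMM against WTPP (limma adjusted p = 0.0160). Between WTPP and WT it was 0.24 ± 0.33 SE (limma adjusted p = 0.698). The sum does not depend on how reads were split among these 6 genes. It still depends on whether reads that match several genes were counted at all, which is unknown.

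**Figure D2:**
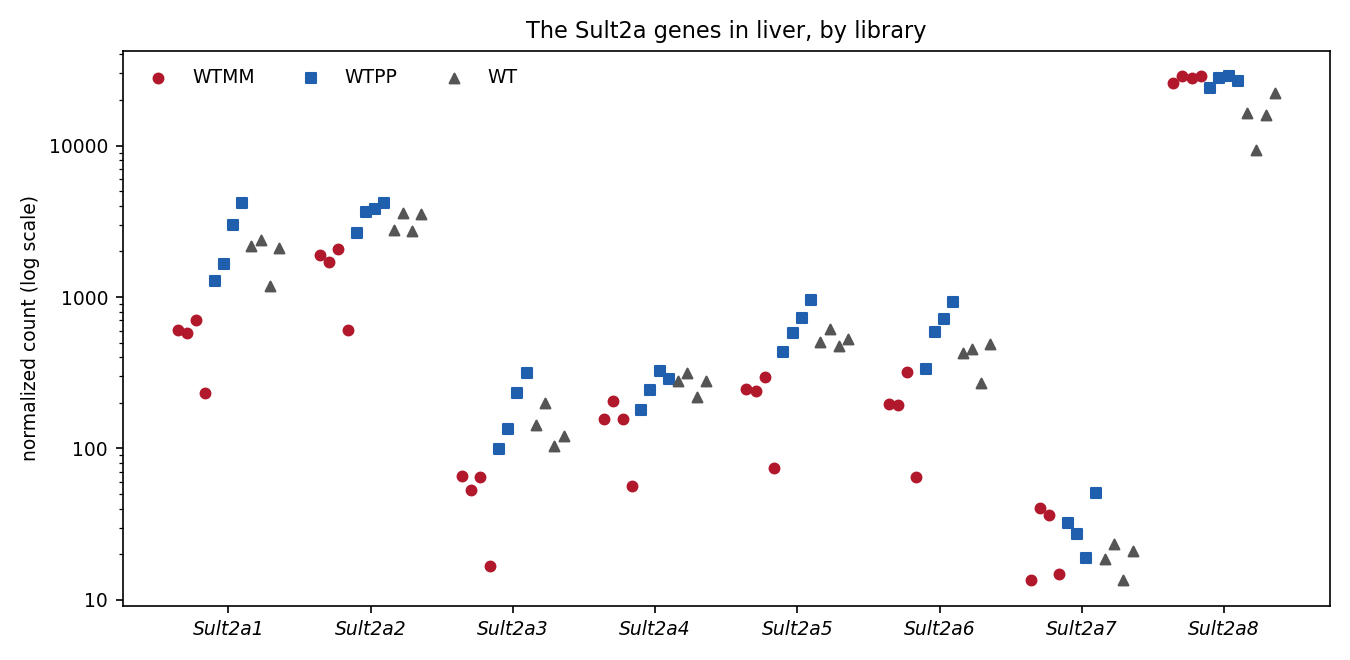
Normalized counts (y axis, log scale) of Sult2a1 to Sult2a8 (x axis) in WTMM, WTPP and WT livers, with 1 point per library. In Sult2a1, Sult2a2, Sult2a3 and Sult2a5 the 4 WTMM livers lie below all others, while in Sult2a8 the 4 WT livers lie below all others.

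Each of Sult2a1 to Sult2a6 was called lower in WTMM in at least 1 of these comparisons, and the sequence before their start sites was compared. RefSeq promoters (GRCm38.p6) matched 7 of the 8 sulfotransferases, all but Sult2a1, and also the paralogs Sult2a3, Sult2a4, Sult2a5 and Sult2a6. The longest run that the 250 bases before the start of these 4 paralogs have in common is 15 bases long, GTTAATGATTTTTTA. The windows around it are shown on the strand of the gene, with the shared run in capitals, because they show how alike the upstream sequences of these paralogs are.
Sult2a5: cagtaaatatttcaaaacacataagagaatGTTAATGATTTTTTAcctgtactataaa
Sult2a4: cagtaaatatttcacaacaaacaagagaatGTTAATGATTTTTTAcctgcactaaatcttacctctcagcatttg
Sult2a3: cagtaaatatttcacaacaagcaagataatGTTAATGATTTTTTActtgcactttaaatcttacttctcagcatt
Sult2a6: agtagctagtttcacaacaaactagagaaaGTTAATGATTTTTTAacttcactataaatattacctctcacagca
They lie at chr7:13623909-13623966 on the plus strand for Sult2a5, and on the minus strand at chr7:13989651-13989725 for Sult2a4, chr7:14123055-14123129 for Sult2a3 and chr7:14254897-14254971 for Sult2a6. The run began 28, 107, 51 and 71 bases before the annotated start of Sult2a5, Sult2a4, Sult2a3 and Sult2a6. Searched on both strands, these letters occurred in 4 of 32851 promoters, which are those of the 4 paralogs. The run was picked as common to these 4, so its presence there was set in advance. Its absence from Sult2a8 and the other 6 of the 8 sulfotransferases with a promoter says little, since 15-base runs are rare by length alone. Of the bases before the start that aligned to Sult2a5 without a gap, 157 of 171 were identical in Sult2a4 (91.8%). The counts were 200 of 227 in Sult2a3 (88.1%) and 168 of 206 in Sult2a6 (81.6%). The unlike aligned lengths give these percentages no clear order. The 2 listed starts of Sult2a8 gave 62.2% and 57.6%. The other 6 of the 8 sulfotransferases with a promoter gave 54.6% (Sult5a1) to 63.2% (Sult1d1). The shared run is part of the longer likeness of the 4 paralogs, as paralogs have, and is a description only.

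Sult2a8 encodes a bile acid sulfotransferase described in mouse liver and lies at chr7:14410686-14446769 on the minus strand. It had 25870, 28680, 28010 and 28630 normalized counts in WTMM livers 6, 7, 8 and 9, and 24000, 27890, 28830 and 26750 in WTPP livers 2, 3, 6 and 7. WT livers 116, 117, 118 and 120 had 16490, 9336, 15920 and 22230. All 8 livers with null grandparents were above all 4 WT livers, and the lowest WT liver was 117. The spread between livers was small in WTMM and WTPP (coefficient of variation 4.74% and 7.78%) and larger in WT (33.0%). Over all tested genes WT 117 was also the WT liver least like the others. Its Pearson r with them on the log2 scale was 0.975 to 0.982, against 0.987 to 0.99 among WT 116, 118 and 120. Pairs of WTPP livers had 0.976 to 0.987, and pairs of WTMM livers 0.984 to 0.988. The part of this in the spread of single genes was not tested.

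Sult2a8 was 1.82-fold higher in WTMM than in WT (means 27800 ± 1318 and 15990 ± 5276, SD, n = 4 each, log2 fold change 0.86 ± 0.19 SE, limma adjusted p = 0.0140). It was 1.75-fold higher in WTPP than in WT (mean 26870 ± 2089 in WTPP, log2 fold change 0.81 ± 0.19 SE, limma adjusted p = 0.0184). WTMM and WTPP did not differ past the test (1.04-fold, 95% interval 0.778 to 1.38, limma adjusted p = 0.923). Fitted with only the WTPP and WT libraries, the call was lost (limma adjusted p = 0.0531, in a range of 0.00747 to 0.0531 over the alternatives). Without WT 117 the log2 fold changes were 0.63 in WTMM against WT and 0.57 in WTPP against WT, and both calls stood (limma adjusted p = 0.00539 and 0.00857).

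Sult2a8 and Sult2a1 lie in the same cluster and are both steroid or bile acid enzymes, and their values moved apart in WTMM, where Sult2a8 rose and Sult2a1 fell relative to WT. Over the 12 libraries the Pearson correlation of the 2 genes on the log2 scale was -0.336, given as a description with no p.

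Sult5a1 encodes a family member whose substrates are little known. It lies at chr8:123140192-123158315 on the minus strand. It had 1820, 2446, 1941 and 1600 normalized counts in WTMM livers 6, 7, 8 and 9, and 944.6, 1064, 1127 and 746.3 in WTPP livers 2, 3, 6 and 7. WT livers 116, 117, 118 and 120 had 1398, 1679, 1210 and 1486. WTPP livers were below all others, while WTMM and WT livers overlapped, with WTMM 9 below WT 117.

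Sult5a1 was 2.01-fold higher in WTMM than in WTPP (means 1952 ± 358.8 and 970.5 ± 167.5, SD, n = 4 each, log2 fold change 1.01 ± 0.15 SE, limma adjusted p = 0.00282). It was 1.49-fold lower in WTPP than in WT (WT mean 1443 ± 195.0, log2 fold change -0.58 ± 0.15 SE, limma adjusted p = 0.0278). The difference of WTMM from WT did not pass (1.34-fold, 95% interval 1.08 to 1.68, limma adjusted p = 0.0828). The call in WTPP against WT was close to the threshold. It was lost without WT 116, WT 117, WT 120, WTPP 2 or WTPP 7 (limma adjusted p = 0.0626, 0.0517, 0.0588, 0.0511 and 0.0756) and without a mean-variance trend (0.0524), in a range of 0.0214 to 0.0756 over the alternatives.

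Sult3a1 encodes an amine sulfotransferase and lies at chr10:33857721-33879532 on the plus strand. It had 19100, 30820, 51800 and 25650 normalized counts in WTMM livers 6, 7, 8 and 9, and 28030, 25640, 20890 and 11320 in WTPP livers 2, 3, 6 and 7. WT livers 116, 117, 118 and 120 had 56350, 26370, 34760 and 56250. The groups overlapped in every comparison. In WTPP the highest liver lay above the lowest WT liver and below the other 3 WT livers.

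The means of Sult3a1 were 31840 ± 14140 in WTMM, 21470 ± 7391 in WTPP and 43430 ± 15250 in WT (SD, n = 4 each), and it was not called in any comparison. The log2 fold change in WTPP against WT was -1.02 ± 0.34 SE (fold 0.492, 95% interval 0.296 to 0.817, limma adjusted p = 0.0720). Without WT 117 it was -1.24 and called (limma adjusted p = 0.0362, in a range of 0.0362 to 0.187 over the alternatives). WTMM against WT gave a log2 fold change of -0.47 (limma adjusted p = 0.395) and WTMM against WTPP 0.55 (limma adjusted p = 0.427). The near copy Sult3a2 followed it across libraries (Pearson r = 0.967 over 12 libraries, with part of the transcript sequence in common) and averaged 6299 ± 3991 in WTMM, 4821 ± 2170 in WTPP and 9506 ± 3147 in WT (SD, n = 4 each).

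The 4 Sult1 genes gave no call by limma or by voom (limma's weighted test on recovered reads) in any comparison. With an unadjusted p under 0.05, 1 of them (Sult1b1) passed in WTMM against WT, 1 (Sult1b1) in WTPP against WT and 0 in WTMM against WTPP. Sult1a1, the main phenol sulfotransferase of liver (chr7:126672865-126676432, minus strand), averaged 12910 ± 1654 normalized counts in WTMM, 12870 ± 3266 in WTPP and 13350 ± 1593 in WT (SD, n = 4 each). Its livers ranged from 11090 to 14670 in WTMM, 9758 to 17320 in WTPP and 11060 to 14750 in WT. The 95% interval of its fold was 0.763 to 1.23 in WTMM against WT, 0.747 to 1.2 in WTPP against WT and 0.805 to 1.29 in WTMM against WTPP. The WTMM and WT ranges were nearly the same, and the WTPP range held both and reached beyond them at each end.

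Sult1b1, which acts on thyroid hormones (chr5:87513339-87538195, minus strand), had 1236, 1478, 1648 and 1206 normalized counts in WTMM livers, 1276, 1273, 1676 and 1553 in WTPP livers and 1040, 1191, 983.5 and 1329 in WT livers. Only WT 120 lay above the lowest livers of the other 2 groups. The folds were 1.22 in WTMM against WT (95% interval 1.01 to 1.49, limma adjusted p = 0.169) and 1.27 in WTPP against WT (1.05 to 1.55, limma adjusted p = 0.109), neither past the threshold. Sult1d1, which acts on catecholamines in mouse (chr5:87554645-87569027, minus strand), ranged from 5335 to 7396 in WTMM, 5001 to 8205 in WTPP and 3599 to 8045 in WT. Its lowest liver was WT 117, and its limma adjusted p was 0.832 for WTMM against WT, 0.627 for WTPP against WT and 0.866 for WTMM against WTPP. Sult1c2 (chr17:53829637-53846339, minus strand) averaged 460.6 ± 105.7 in WTMM, 488.3 ± 111.5 in WTPP and 416.8 ± 78.99 in WT (SD, n = 4 each), with limma adjusted p of 0.674 for WTMM against WT, 0.497 for WTPP against WT and 0.879 for WTMM against WTPP.

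**Figure D3:**
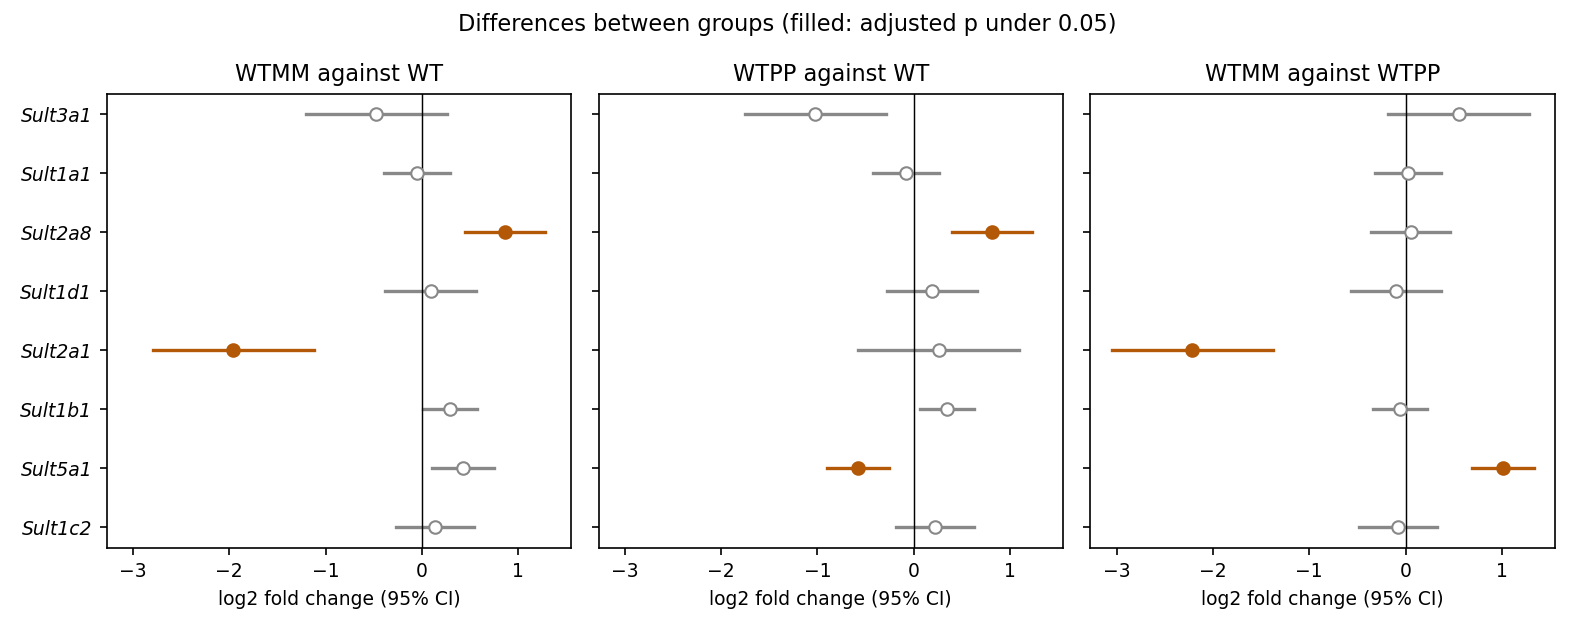
Log2 fold changes (x axis) of the 8 genes (y axis) with 95% confidence intervals from limma, in 3 panels (WTMM against WT, then WTPP against WT, then WTMM against WTPP); filled points have an adjusted p under 0.05. Filled points are Sult2a1 (-1.96) and Sult2a8 (0.86) in the first panel, Sult2a8 (0.81) and Sult5a1 (-0.58) in the second, and Sult2a1 (-2.21) and Sult5a1 (1.01) in the third.

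Levels of different genes were compared as normalized counts per kb of exon. The length was that of all annotated exons of a gene together (1507 bases for Sult1a1 and 3284 for Sult2a8). Single transcripts are shorter, and the longest held 1321 windows of 50 bases in Sult1a1 and 2094 in Sult2a8. Taking the longest transcript would raise Sult2a8 more than Sult1a1. The order and overlap of genes close in level depend on this choice, and other lengths were not tested. Sult3a1 was the highest of the 8 in each group, at 27540 ± 12240 per kb in WTMM, 18570 ± 6394 in WTPP and 37570 ± 13190 in WT (SD, n = 4 each). Sult1a1 followed with 8567 ± 1098, 8538 ± 2166 and 8858 ± 1057 per kb in WTMM, WTPP and WT, and then Sult2a8 with 8464 ± 401.4, 8182 ± 636.5 and 4870 ± 1606 per kb. With these lengths Sult1a1 and Sult2a8 overlapped in WTMM and WTPP livers, whereas in WT all livers had more Sult1a1 than the highest Sult2a8 value. Sult1d1 followed in each group, and in WTPP and WT its range overlapped that of Sult2a1.

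Sult2a1 held rank 5 in each group but at different distances. In WTMM it had 519.4 ± 202.8 per kb and overlapped Sult1b1 (500.6 ± 75.39 per kb), while in WTPP (2478 ± 1296 per kb) and in WT (1930 ± 530.5 per kb) all livers were above Sult1b1. At the bottom, Sult1c2 was lowest in WTMM (249.5 ± 57.27 per kb) and WT (225.8 ± 42.79 per kb), and Sult5a1 was lowest in WTPP (219.6 ± 37.90 per kb). Sult5a1 overlapped Sult1c2 in WTPP and WT and not in WTMM. Summed over the 8 genes, the level was 48770 ± 13270 per kb in WTMM, 41470 ± 5970 in WTPP and 56600 ± 15850 in WT, and the ranges of the groups overlapped. Sult3a1 made up 54.7% ± 9.06 of this sum in WTMM, 44.0% ± 12 in WTPP and 65.3% ± 5.72 in WT. Sult2a8 made up 18.2% ± 4.03 in WTMM, 20% ± 3.29 in WTPP and 8.59% ± 1.63 in WT.

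**Figure D4:**
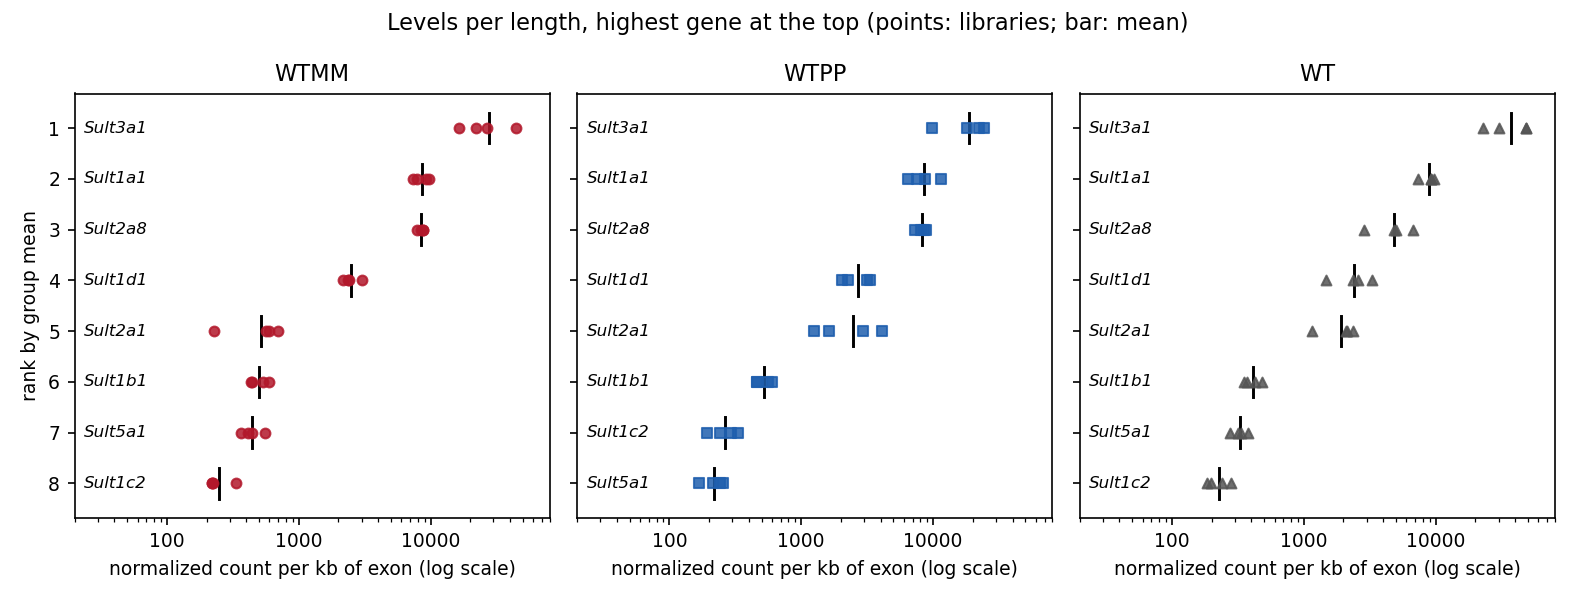
Normalized counts per kb of exon (x axis, log scale) of the 8 genes, ranked by group mean from the top (y axis), in WTMM, WTPP and WT; points are libraries and the bar is the mean. Sult2a8 overlaps Sult1a1 in WTMM and WTPP but not in WT, and Sult2a1 overlaps Sult1b1 in WTMM but not in WTPP or WT. Lengths are those of all annotated exons together, and the order and overlap of Sult1a1 and Sult2a8 depend on this choice.

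Of the other Sult genes, 8 were tested. In WTMM against WT 5 were called lower (Sult1e1, Sult2a2, Sult2a3, Sult2a4 and Sult2a5) and none higher, with a median log2 fold change of -1.2. Voom called 4 of the 8 there. Between WTPP and WT none was called by limma or voom, and 2 had an unadjusted p under 0.05 (Sult1e1 and Sult3a2), with a median of 0.232. In WTMM against WTPP 4 were lower (Sult2a2, Sult2a3, Sult2a5 and Sult2a6; median -1.14). Sult1e1, the oestrogen sulfotransferase (chr5:87575969-87591594, minus strand, beside Sult1d1), had 0, 32.56, 7.960 and 9.857 normalized counts in WTMM livers 6, 7, 8 and 9, and 3.094, 34.51, 47.66 and 2.741 in WTPP livers 2, 3, 6 and 7. WT livers 116, 117, 118 and 120 had 389.4, 21.22, 239.1 and 198.2, so that WT 117 lay within the range of the other groups and the other 3 WT livers far above it. Its log2 fold change was -4.24 ± 1.15 SE in WTMM against WT (limma adjusted p = 0.0330) and -3.48 ± 1.15 SE in WTPP against WT, which did not pass (limma adjusted p = 0.0703).

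Among 9 tested genes of PAPS supply, Slc13a4, a sulfate carrier, was higher and Papss1 and Slc26a1 were lower in WTMM than in WT. Papss1, a PAPS synthase, had 372.9, 449.7, 550.4 and 370.6 normalized counts in WTMM livers, against 746.0, 552.7, 815.4 and 791.0 in WT livers (log2 fold change -0.74 ± 0.15 SE, limma adjusted p = 0.00876). The groups did not overlap, and the closest pair was WTMM 8 and WT 117. Papss2, the more abundant synthase in these livers, averaged 10350 ± 1264 in WTMM, 12770 ± 2419 in WTPP and 10180 ± 2492 in WT (SD, n = 4 each) and was not called (limma adjusted p = 0.882 for WTMM against WT, 0.225 for WTPP against WT and 0.403 for WTMM against WTPP). Slc26a1, the sulfate exchanger of the liver cell, averaged 5819 ± 464.0 in WTMM and 8597 ± 2015 in WT (SD, n = 4 each, limma adjusted p = 0.0331). In WTPP against WT only Slc13a4 was called (64.93 ± 33.43 against 28.07 ± 8.166, SD, n = 4 each, limma adjusted p = 0.0290), and in WTMM against WTPP none of the 9 by limma or voom (1 with an unadjusted p under 0.05, Papss1).

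Of 10 genes that supply cysteine or make sulfate from it, only Cbs was called in WTMM against WT, and it was lower. Cbs, which makes cystathionine from homocysteine, averaged 10770 ± 1059 in WTMM and 17470 ± 3636 in WT (SD, n = 4 each, limma adjusted p = 0.0222). Ethe1, a mitochondrial persulfide dioxygenase, was lower in WTMM (794.7 ± 194.8) than in WTPP (1604 ± 484.5, SD, n = 4 each, limma adjusted p = 0.0357), and none was called in WTPP against WT by limma or voom (1 with an unadjusted p under 0.05, Cdo1). None of 10 sulfatase genes, which remove sulfate, was called in any comparison by limma or voom. With an unadjusted p under 0.05, 1 passed in WTMM against WT, 2 in WTPP against WT and 3 in WTMM against WTPP, with median log2 fold changes of 0.0641 for WTMM against WT, -0.0319 for WTPP against WT and 0.121 for WTMM against WTPP. Of 11 carriers of sulfate conjugates, Slco1a1 and Slco1b2 were higher and Abcc4 and Slc51b lower in WTMM than in WT, where voom called 3. None was called in WTPP against WT by limma or voom (2 with an unadjusted p under 0.05), and in WTMM against WTPP Slco1a1 was higher and Slc51b lower. Slco1a1, an uptake carrier, averaged 42860 ± 6234 in WTMM, 26370 ± 1625 in WTPP and 26530 ± 5582 in WT (SD, n = 4 each).

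Of 17 regulators of Sult genes, Nr1i3, which encodes the receptor CAR, was the only one called in WTMM against WT. It had 10320, 7366, 8769 and 8719 normalized counts in WTMM livers and 7842, 7709, 8092 and 8558 in WTPP livers, against 5048, 6393, 4994 and 5124 in WT livers. All WTMM and WTPP livers were above all WT livers, as for Sult2a8 (1.63-fold in WTMM, limma adjusted p = 0.00229; 1.5-fold in WTPP, limma adjusted p = 0.00614). Between WTPP and WT, Nfe2l2 and Nr3c1 were also higher, and Hnf4a and Nr1i2 were lower (folds 1.38, 1.25, 0.761 and 0.815). In WTMM against WTPP only Cux2, a factor of female liver, was called, with 2056, 1604, 1532 and 1422 in WTMM livers against 793.0, 243.4, 806.9 and 685.1 in WTPP livers (2.86-fold, limma adjusted p = 0.0212).

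Of 17 tested male-predominant liver genes, 10 were called higher and 2 lower in WTMM than in WT (median log2 fold change 0.709), and 9 higher and none lower in WTMM than in WTPP (median 0.717). In WTPP against WT 2 were higher and 2 lower (median 0.0169), where voom called 2 in all. Hsd3b5, a steroid enzyme typical of male liver, had 889.0, 2755, 1291 and 1624 normalized counts in WTMM livers, 99.0, 167.3, 117.5 and 31.06 in WTPP livers and 260.9, 199.1, 224.5 and 415.8 in WT livers. Its groups did not overlap in any comparison, and the order WTMM, WT, WTPP is that of Sult5a1 (limma adjusted p = 0.00505 in WTMM against WT, 0.0397 in WTPP against WT and 0.000329 in WTMM against WTPP).

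Of 19 female-predominant genes, 4 were higher and 1 lower in WTMM than in WT, 3 higher and 1 lower in WTPP than in WT, and 1 higher and 2 lower in WTMM than in WTPP. Voom called 4 of the 19 in WTMM against WT. The lower one in WTMM against WT was Cyp2b10, a target of CAR, at 529.3 ± 330.9 against 2136 ± 786.4 (SD, n = 4 each, limma adjusted p = 0.0140). It was also lower in WTMM than in WTPP (2538 ± 1014, SD, n = 4, limma adjusted p = 0.0145). The median log2 fold change of the list was 0.160 in WTMM against WT, and its 4 higher genes were Abcd2 (1.74-fold, limma adjusted p = 0.00546), Cyp2c69 (2.27-fold, 0.0280), Hao2 (1.52-fold, 0.0265) and Acot3 (3.27-fold, 0.0494).

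**Figure D5:**
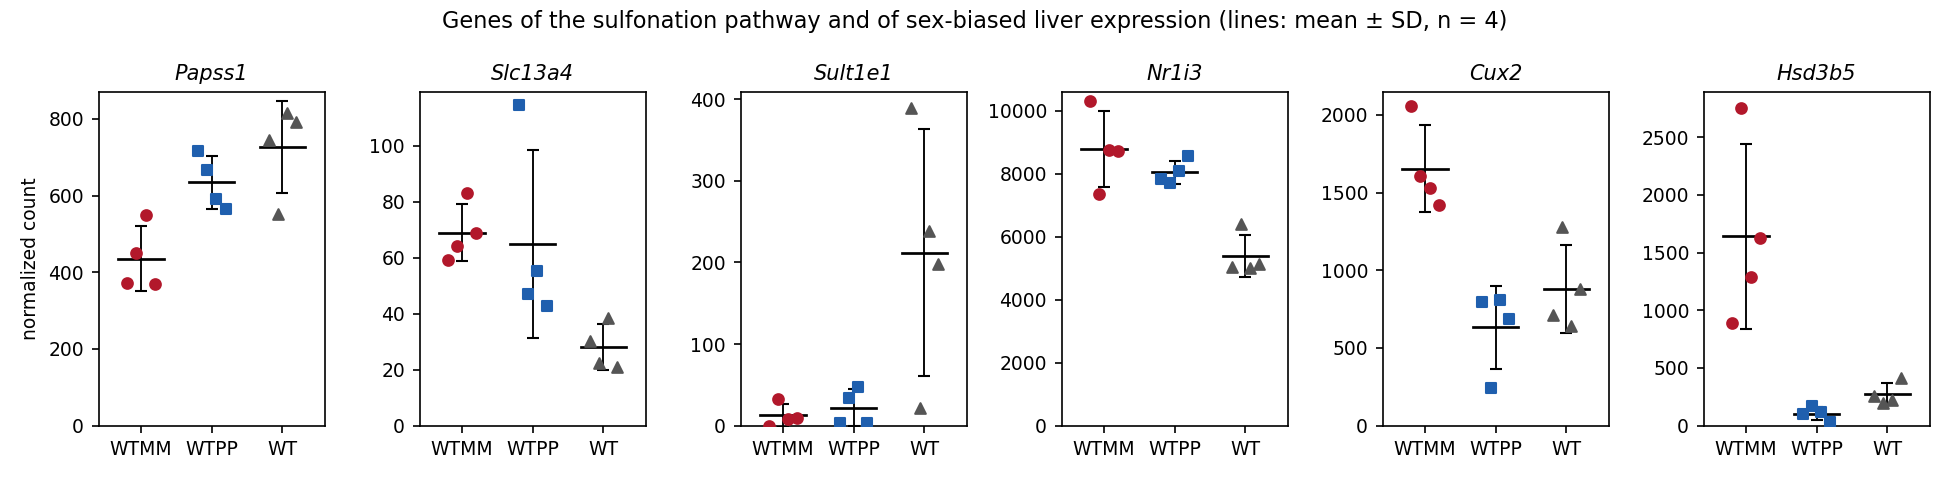
Normalized counts (y axis, from 0) of Papss1, Slc13a4, Sult1e1, Nr1i3, Cux2 and Hsd3b5 in WTMM, WTPP and WT livers (x axis); points are libraries and lines the mean ± SD of 4, cut off at 0. Nr1i3 lies above every WT liver in all WTMM and WTPP livers, and Hsd3b5 lies between 889.0 and 2755 in WTMM and between 31.06 and 167.3 in WTPP.

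The genes whose pattern over the 12 libraries was most like that of a called gene were found by Pearson r on the log2 scale among all tested genes, as a description that includes the differences between groups. For Sult2a1 they were Sult2a3 (r = 0.980), Sult2a5 (0.968) and Spacdr (0.960), the last averaging 200.3 ± 26.47 in WTMM, 339.2 ± 66.06 in WTPP and 298.0 ± 30.78 in WT (SD, n = 4 each). For Sult2a8 they were Vps54 (0.963), Zfp281 (0.961) and Pnpla8 (0.958), all of which had lower means in WT than in the other groups. For Sult5a1 they were Tmem19 (0.927), Hsd3b5 (0.920) and Acsm2 (0.900). Among the 8 genes themselves r ran from -0.623 for Sult2a1 with Sult5a1 to 0.630 for Sult1d1 with Sult2a8.

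Marker genes of cell types were counted in the same fit, since bulk liver RNA also holds RNA of other cells than hepatocytes. Alb, the albumin gene of hepatocytes, averaged 2269000 normalized counts in WTMM, 2816000 in WTPP and 2738000 in WT. Of 12 hepatocyte markers, Tat was higher and Cps1 lower in WTMM than in WT, Hnf4a was lower in WTPP than in WT, and Cyp2e1 was higher in WTMM than in WTPP. Voom called 3 of these 12 markers in WTMM against WT. The median log2 fold change of the 12 was -0.0538 in WTMM against WT, -0.0251 in WTPP against WT and -0.0019 in WTMM against WTPP. Of 9 Kupffer cell markers 8 were lower in WTMM than in WT and 9 in WTPP than in WT, and their sum ran from 12300 to 16370 normalized counts in WTMM, 12890 to 16830 in WTPP and 19110 to 41430 in WT. This sum, like Sult2a8 in the other direction, separated WT from both other groups, and its part in the Sult2a8 result was not tested. Between WTMM and WTPP none of the 9 Kupffer cell markers was called by limma or voom, and 0 had an unadjusted p under 0.05. The part of cell composition in the Sult2a1 and Sult5a1 results was not tested.

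T and NK cell markers were lower for 6 of 8 in WTMM and 4 of 8 in WTPP against WT. B cell markers were lower for 4 of 6 in WTMM and 3 of 6 in WTPP (2 by voom), and neutrophil markers for 4 of 4 tested in WTMM (2 of them by voom). In WTPP against WT no neutrophil marker was called by limma or voom, with 3 of 4 at an unadjusted p under 0.05 and a median log2 fold change of -1.18 (-1.86 in WTMM against WT). Between WTMM and WTPP no marker of these 3 cell types was called by limma or voom (with an unadjusted p under 0.05, 1 T and NK cell, 2 B cell and 1 neutrophil marker). Pancreatic acinar markers were lower for 6 of 8 tested in both comparisons with WT and for none in WTMM against WTPP by limma or voom (1 with an unadjusted p under 0.05, Cela1). Voom called 5 of the 8 in WTPP against WT. The sum of the acinar list was 1325 to 1736 normalized counts in WTMM, 482.3 to 1250 in WTPP and 1203 to 3207 in WT, most of it Cela1 in WTMM and WTPP (1301 to 1715 in WTMM, 445.8 to 1237 in WTPP and 1120 to 1678 in WT), which was not called. The 6 called acinar markers separated WT from both other groups. Cpb1 and Clps were at 0 in every WTMM and WTPP liver, against 15.16 to 407.3 for Cpb1 and 17.75 to 123.8 for Clps in WT livers, and the part of acinar RNA in the results was not tested. None of 6 sinusoidal endothelial markers was called by limma or voom in any comparison (with an unadjusted p under 0.05, 2 in WTMM against WT, 2 in WTPP against WT and 1 in WTMM against WTPP). Of 6 stellate cell markers Des was lower in WTMM than in WT, and of 5 tested erythroid markers Alas2 was. In WTPP against WT limma called 0 erythroid markers and voom 1.

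Of 4 tested biliary markers Sox9 was lower in WTMM than in WT and than in WTPP, and Spp1 was higher in WTPP than in WT. Voom called 0 of the 4 in WTMM against WT, 0 in WTMM against WTPP and 1 in WTPP against WT. Kidney and intestine also express Sult1 genes. The 3 kidney tubule markers analysed summed to 0 to 10.08 normalized counts in WTMM, 2.217 to 11.34 in WTPP and 4.672 to 23.24 in WT, with Umod at 0 reads in every library. Of 2 tested intestinal markers, Fabp2, which liver also expresses, and Lgals4 were higher in WTMM than in WT, Lgals4 was higher in WTPP than in WT, and Fabp2 was higher in WTMM than in WTPP.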

How the data were processed

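Per the labels' protocols, RNA was isolated from liver with a kit for lipid tissue and libraries were directional. The submitters' processing notes name cutadapt, HISAT2, DESeq2 and the build GRCm38, per the labels, without versions; the gene counter is not named in the sources used here. For 25069 genes the authors deposited log2 values, which by their steps are log2 of a normalized count plus 0.1. Normalized counts were recovered by taking off 0.1 from the antilog, and all values were whole reads to within 0.001 of a read once divided by 1 factor per library.

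Genes with a mean of at least 10 were tested on log2(normalized count + 1) in limma (3.58.1, under R 4.3.3). The fit had 3 group means over 12 libraries and a mean-variance trend; p-values were adjusted by Benjamini-Hochberg, with a threshold of 0.05. A fold on this scale understates the change of low genes. The procedure was tested on simulated data. Intervals are 95% limits from the fit. Alternatives changed the pseudocount, filter, scaling, trend, weights (voom on recovered reads), groups fitted and libraries.

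Exons, coordinates and coding sequences came from GENCODE M21 and promoters from RefSeq. Named genes were the 8 sulfotransferases, up to 4 called genes of each pathway list by smallest p, and the 3 genes most alike to each called sulfotransferase; Papss2, Sult3a2, Cyp2c69, Sult2a6 and single markers were added after their values were seen. The 8 genes, the lists and the tests were chosen with earlier results of these data known. No column was left out. Figures were drawn with matplotlib 3.10.9.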

Additional observations from a re-analysis of the deposited data

Results flagged for a closer look

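In Sult1c2, WTMM 6 stood apart from the other 3 WTMM livers, at 619.2 normalized counts where they had 404.1 to 411.0. It was the only outlying library among 24 sets of 4 libraries (8 genes in 3 groups), and chance gives about 1 in 20.

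The lineages of null grandmothers and null grandfathers differed in Sult2a1, with a log2 fold change of -2.21 in WTMM against WTPP (limma adjusted p = 0.00735, all 4 WTMM livers below all 4 WTPP livers). They also differed in Sult5a1, with 1.01 (limma adjusted p = 0.00282, all 4 WTMM livers above all 4 WTPP livers). Both are the direct test of the difference between the lineages.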

How the results depend on the processing

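Over all alternatives run, Sult2a1 stayed called in WTMM against WT and in WTMM against WTPP, and Sult2a8 in WTMM against WT. Genes called with 1 library left out ran from 823 (without WTMM 7) to 1803 (without WT 117) in WTMM against WT, from 722 (without WT 116) to 1996 (without WT 117) in WTPP against WT, and from 265 (without WTMM 9) to 822 (without WT 117) in WTMM against WTPP. Sulfotransferases called with 1 library left out numbered 1 to 2 in WTPP against WT. With only WTPP and WT fitted, 879 genes and 1 sulfotransferase were called, and without a trend 1 sulfotransferase. As far as the labels say, the numbers 6 and 7, shared by WTMM and WTPP, name different mice. Deviations of the same number correlated at -0.153 and -0.0662, and those of different numbers at -0.127 to 0.159. These few values cannot show whether mice of the same number shared a litter or batch. With the number as a replicate block (4 libraries) 97 genes and 1 sulfotransferase were called, and Sult5a1 was not (log2 fold change 1.2, limma adjusted p = 0.108). The cause of these changes was not tested. Log2 fold changes that were not called changed sign with 1 library left out. In WTMM against WT these ran from -0.14 to 0.021 for Sult1a1, -0.013 to 0.25 for Sult1c2 and -0.13 to 0.25 for Sult1d1. In WTPP against WT they ran from -0.23 to 0.044 for Sult1a1, -0.032 to 0.35 for Sult1d1 and -0.035 to 0.53 for Sult2a1. In WTMM against WTPP they ran from -0.093 to 0.18 for Sult1a1, -0.14 to 0.020 for Sult1b1, -0.23 to 0.036 for Sult1c2, -0.23 to 0.012 for Sult1d1 and -0.0020 to 0.086 for Sult2a8. There Sult1a1 was also -0.017 with quantile scaling and -0.077 with the block, and Sult2a8 -0.028 with the block. With 4 livers a group, fold intervals of the sulfotransferases are wide, and a missed threshold does not show equal levels.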
